A study of Mus musculus with 4 samples.

Results

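The genes described here are the Wnt ligands, their Frizzled receptors and Lrp co-receptors, their secreted antagonists and a few intracellular and nuclear components of the pathway, measured in mouse prostate. Members were taken by name from the array's own annotation: every non-control probe whose gene name was Wnt, Fzd, Sfrp or Dkk followed by a number, or was Axin1, Axin2, Lef1, Tcf7, Wif1, Lrp5 or Lrp6. This gave 44 genes with 58 probes of the 28090 genes and 41174 probes on the array. They comprised 19 ligands, 10 receptors, 2 co-receptors, 9 secreted antagonists and 4 intracellular or nuclear members. The rule reads gene names alone, though it was written with earlier results of these data known.

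Total RNA from prostate was labelled with the dye Cy3 and hybridised to Agilent arrays of 1 colour, with 1 array for each of 4 groups. The groups were C57BL/6 mice given olive oil, C57BL/6 mice given TmT, TRAMP mice given olive oil and TRAMP mice given TmT. TmT is a tocopherol mixture rich in the gamma form of vitamin E, written γ-TmT in the labels, and was given by gavage at 600 mg/kg. TRAMP mice carry the SV40 early genes, whose products inactivate p53 and Rb, driven by a promoter of the rat probasin gene, one that works in the epithelial cells of the prostate. All groups were males of 8 weeks on AIN-76A diet that were fasted overnight before dosing, and all prostates were taken 12 h after it. Each group had 3 mice, but the labels do not say whether an array held RNA of 1 mouse or of a pool. With 1 array per group, a difference between 2 arrays had no replicate check, and the error given beside it is the scanner software's spot error, which leaves out the spread between mice.

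Wnt proteins are secreted lipid-modified ligands that bind Frizzled receptors together with the co-receptors Lrp5 or Lrp6, which stabilises β-catenin so that it can act with TCF and LEF factors in the nucleus, or else signal without β-catenin through polarity and calcium routes. Sfrp proteins and Wif1 bind the ligands outside the cell, most Dkk proteins bind the co-receptors, and Axin scaffolds hold the complex that destroys β-catenin. All Dkk genes, Dkk3 included, were counted as secreted antagonists by name. In the prostate the pathway is known for its part in ductal budding and in signalling between stroma and epithelium.

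Values are log2 signals minus the log2 of the array's 75th percentile, so 0 means a probe as bright as that percentile. Probes differ in how brightly they hybridise, so differences are between arrays for the same probe, and no level is set against that of another gene. For a gene with several probes the brightest one was used. A difference of 1 log2 unit is 2-fold, and a gene was counted as different where it differed at least 2-fold and was well above background, by the scanner software's flag, on both arrays. The 75th percentile ranged from 71.3 intensity units on the TRAMP array after TmT to 161 on the C57BL/6 array after oil, and 63.9% to 74.1% of spots were well above background. No spot was saturated. The scanner software had applied its multiplicative detrending, a correction for position on the array, to every array but that of TRAMP after TmT, where the processed signal equalled the signal before this step, within 1%, for 100% of the spots well above background. As a check of the labels, the 7 of 8 listed proliferation markers named on the array were all at least 2-fold higher on each TRAMP array than on the C57BL/6 array of the same treatment, with medians of 2.85 after oil and 2.29 after TmT.

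The promoters of the 4 members that were at least 2-fold lower on the TRAMP array than on the C57BL/6 array after oil are shown here because the main contrast below turns on these genes. Wif1 encodes a secreted protein that binds Wnt ligands, Dkk2 a ligand of the Lrp co-receptors, Fzd7 a Frizzled receptor and Wnt3a a ligand that acts through β-catenin. Each sequence is the 250 bases upstream of the start of transcription in the RefSeq table of build GRCm38.p6, read 5′ to 3′ on the gene's strand. Capitals mark GGGCGG or its reverse complement CCGCCC, the GC box, with overlapping matches joined. The windows lie at chr10:121033754-121034003 on the plus strand for Wif1, chr3:132085042-132085291 on the plus strand for Dkk2, chr1:59481897-59482146 on the plus strand for Fzd7 and chr11:59290752-59291001 on the minus strand for Wnt3a.
Wif1: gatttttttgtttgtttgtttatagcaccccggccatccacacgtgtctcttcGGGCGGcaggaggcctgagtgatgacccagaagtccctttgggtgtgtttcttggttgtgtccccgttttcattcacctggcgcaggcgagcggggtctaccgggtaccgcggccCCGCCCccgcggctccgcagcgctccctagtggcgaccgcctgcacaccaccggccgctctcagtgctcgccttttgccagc
Dkk2: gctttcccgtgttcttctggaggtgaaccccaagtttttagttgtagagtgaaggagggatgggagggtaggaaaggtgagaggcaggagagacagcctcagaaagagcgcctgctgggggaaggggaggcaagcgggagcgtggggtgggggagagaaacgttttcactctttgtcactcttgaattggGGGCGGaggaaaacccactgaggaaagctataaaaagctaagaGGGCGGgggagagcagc
Fzd7: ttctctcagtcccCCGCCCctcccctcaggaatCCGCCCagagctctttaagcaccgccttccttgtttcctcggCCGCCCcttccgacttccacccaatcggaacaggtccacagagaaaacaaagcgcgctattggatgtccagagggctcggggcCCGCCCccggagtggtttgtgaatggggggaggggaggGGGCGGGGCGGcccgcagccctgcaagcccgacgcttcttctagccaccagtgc
Wnt3a: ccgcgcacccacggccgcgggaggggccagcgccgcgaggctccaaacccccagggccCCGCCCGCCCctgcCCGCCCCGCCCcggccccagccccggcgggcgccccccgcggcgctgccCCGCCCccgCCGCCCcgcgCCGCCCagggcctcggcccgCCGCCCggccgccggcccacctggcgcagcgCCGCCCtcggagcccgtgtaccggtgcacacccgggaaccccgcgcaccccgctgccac
All 4 windows held a GC box and none held CTTTGAA or CTTTGAT on either strand, the letters searched for TCF and LEF factors. GC content ran from 55.6% for Dkk2 through 62.8% for Wif1 and 65.2% for Fzd7 to 87.6% for Wnt3a.

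The RefSeq table held 36 promoters for 29 of the 44 members. A GC box was present in 27 of the 36 (75%), against 42.6% of 21262 promoters of protein-coding genes and 32.7% of all 32851 promoters in windows of the same length. The TCF and LEF letters were present in 3 (8.33%), those of Dkk1, Wnt11 and Wnt5b, against 6.73% of protein-coding promoters and 7.48% of all. Median GC content was 66.6% for the members, with a median of 20.5 CpG dinucleotides per window, and 55.6% with 10 for protein-coding genes. These shares describe letters in a window and were not tied to any binding measurement.

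Detection came first, since Wnt ligands are often near the limit of an array. Of the 44 members, 29 (65.9%) were well above background on all 4 arrays, against 60.4% of all genes. On the C57BL/6 arrays 38 members were well above background after oil and 36 after TmT, and on the TRAMP arrays 33 and 32. The 6 members that were not well above background on any array were the ligands Wnt3, Wnt8a, Wnt10b and Wnt16, the co-receptor antagonist Dkk4 and the nuclear factor Lef1. The other 9 were well above background on 2 or 3 arrays, and these were Wnt1, Wnt2, Wnt5a, Wnt7a, Wnt8b, Wnt10a, Sfrp4, Sfrp5 and Axin1. All 10 Frizzled receptors and both co-receptors were well above background on every array. The plot of member levels shows these states for each gene.

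**Figure D1:**
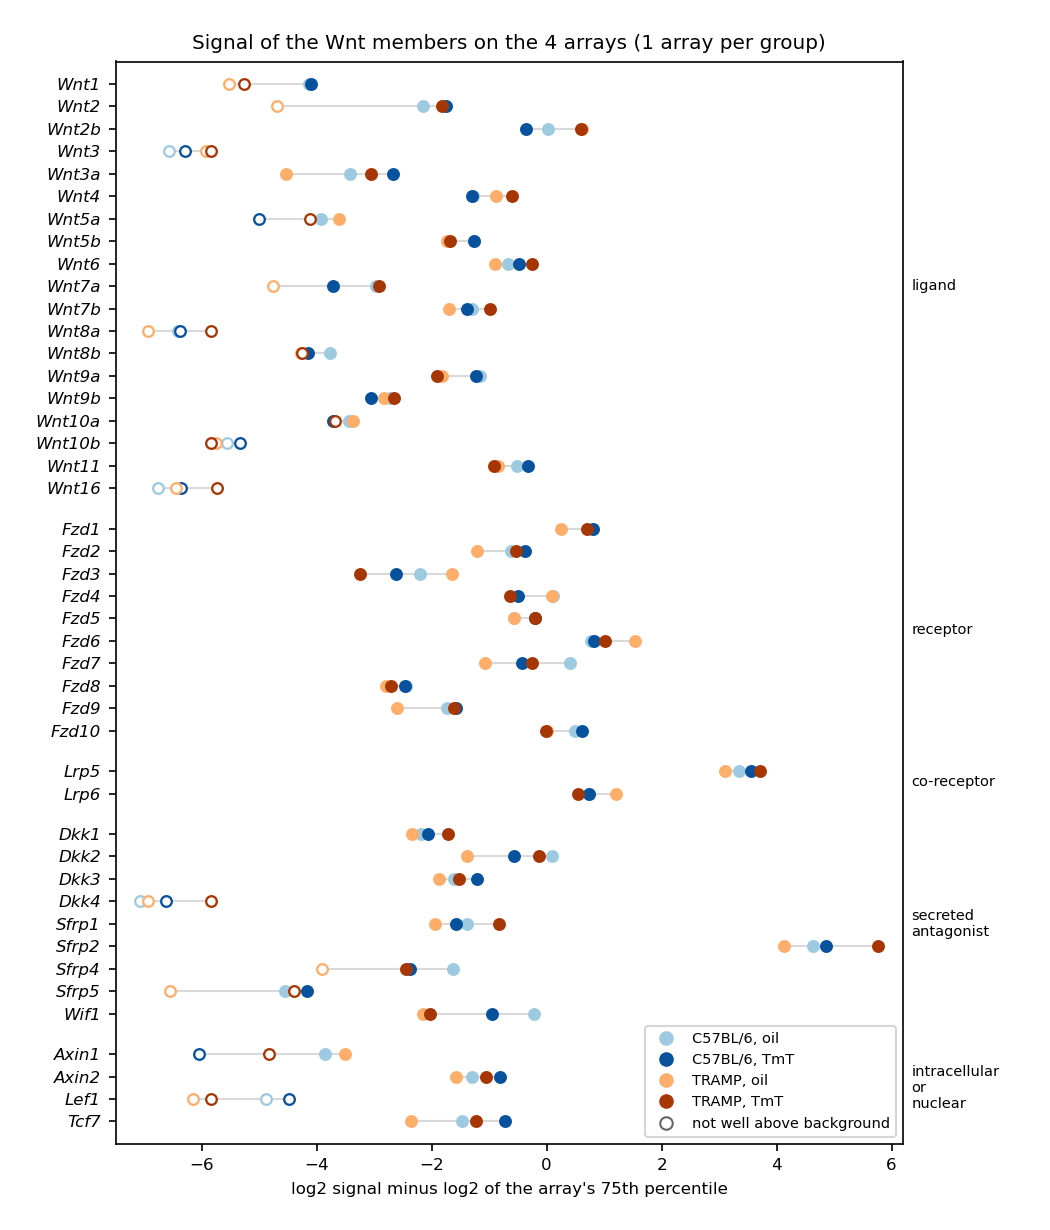
Log2 signal of each of the 44 members minus the log2 of the array's 75th percentile (horizontal axis), 1 point per array, coloured by group and sorted by role; open points were not well above background and points at the same value overlap. Levels of different genes are not comparable; within a gene, the light orange point of TRAMP after oil was the lowest of the 4 in 19 of the 29 members well above background on all arrays.

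After oil, members were lower rather than higher on the TRAMP array than on the C57BL/6 array. Of the 33 members well above background on both arrays, 4 were at least 2-fold lower (12.1%), where 7.85% of all genes measured on both arrays were, and 0 were at least 2-fold higher, where 7.73% of all genes were. A share of 12.1% is 4 genes, so it stands near the background share. Below 0 lay 25 of the 33 (75.8%), against 54.5% of all genes, and the median difference was -0.34 against -0.07 over all genes. By role the medians were -0.28 for 12 ligands, -0.43 for 10 receptors and -0.53 for 6 secreted antagonists. All 6 of those antagonists lay below 0. Medians of marker lists were -0.64 for fibroblasts, -0.60 for nerve and glia, -0.95 for endothelium and -1.37 for basal epithelium. Adipocyte and proliferation markers went the other way, at 2.86 and 2.85. The part of cell makeup was not tested. With the planned normexp background correction the members' median was 0.00926, and with one fitted without spots of extreme local background it was -0.015, with 1 member at least 2-fold lower in each.

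Wif1 had the lowest difference among members well above background on both arrays. Its signal was -0.22 on the C57BL/6 array after oil, -0.95 after TmT, -2.15 on the TRAMP array after oil and -2.03 after TmT. Both TRAMP arrays lay below both C57BL/6 arrays, by -1.93 ± 0.26 after oil and -1.07 ± 0.23 after TmT. Its probe lies at chr10:120537079-120537138 on build mm9 and starts at base 1396 of the transcript, with the following first 30 of 60 bases.
Wif1 probe: ggctgatatctactcttccttttaggtttt
The 2-fold difference of Wif1 after TmT was lost on the signal before detrending, at -0.86, and with the normexp correction fitted without extreme spots, at -0.04. After oil these settings gave -2.70 and -0.90.

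Dkk2 and Fzd7 shared a different pattern, in which the TRAMP array after oil alone was low. Dkk2 read 0.10 on the C57BL/6 array after oil, -0.56 after TmT, -1.38 on the TRAMP array after oil and -0.13 after TmT. Its difference between the lines was -1.48 ± 0.21 after oil and 0.43 ± 0.21 after TmT, so the sign turned. Fzd7 read 0.40, -0.42, -1.07 and -0.25 on the same arrays in that order, which gave -1.47 ± 0.17 after oil and 0.17 ± 0.21 after TmT. The ranges of the lines overlapped for both genes, and with the same normexp correction their differences after oil were -0.82 for Dkk2 and -1.11 for Fzd7. On the signal before detrending they were -1.32 and -2.44.

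Wnt3a was dim throughout, at -3.43 on the C57BL/6 array after oil, -2.66 after TmT, -4.53 on the TRAMP array after oil and -3.05 after TmT. Its difference after oil was -1.10 ± 0.35, and the TRAMP array after oil was again the lowest. With normexp background correction, as planned and as fitted without extreme spots, that difference was 0.04, and on the signal before detrending it was -0.86, so that neither reached 2-fold. Before detrending 4 members were again at least 2-fold lower, with the receptor Fzd10 at -1.02 in place of Wnt3a. The normexp correction adds an offset of 50 units, which shrinks the differences of dim probes.

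Of the 5 members well above background on the C57BL/6 array after oil but not on the TRAMP array after oil, 3 had a bound of at least 2-fold: Wnt2, Wnt7a and Sfrp4. Among all genes above background on 1 of these 2 arrays, 23.9% had a bound at least 2-fold lower in TRAMP. For such a bound the brighter value was divided by a floor on the dim array, namely the dim probe's own value or, if higher, the weakest signal there that was well above background. For Wnt2, Wnt7a and Sfrp4 the dim probe's own value was the higher, so the fold is the measured difference. It is not a strict lower limit, and its log2 value and spot error are given beside it. Wnt2, a ligand made by mesenchyme in several organs, read -2.16 on the C57BL/6 array after oil, -1.74 after TmT, -4.69 on the TRAMP array after oil and -1.82 after TmT. It was 5.81-fold lower on the TRAMP array than on the C57BL/6 array after oil (-2.54 ± 0.38), while both arrays after TmT differed by -0.07 ± 0.23.

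Wnt7a, a ligand known from the epithelium of the female reproductive tract, read -2.97, -3.71, -4.75 and -2.92 in the same array order. It was 3.45-fold lower in TRAMP after oil (-1.79 ± 0.42). Sfrp4, a secreted antagonist with a Frizzled-like domain, read -1.62, -2.37, -3.91 and -2.44, and was 4.89-fold lower in TRAMP after oil (-2.29 ± 0.28). In all 3 genes the TRAMP array after oil was the lowest and the only one not well above background. For Sfrp5 and Wnt1 the bounds after oil were 1.23-fold and 1.66-fold, under the threshold.

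**Figure D2:**
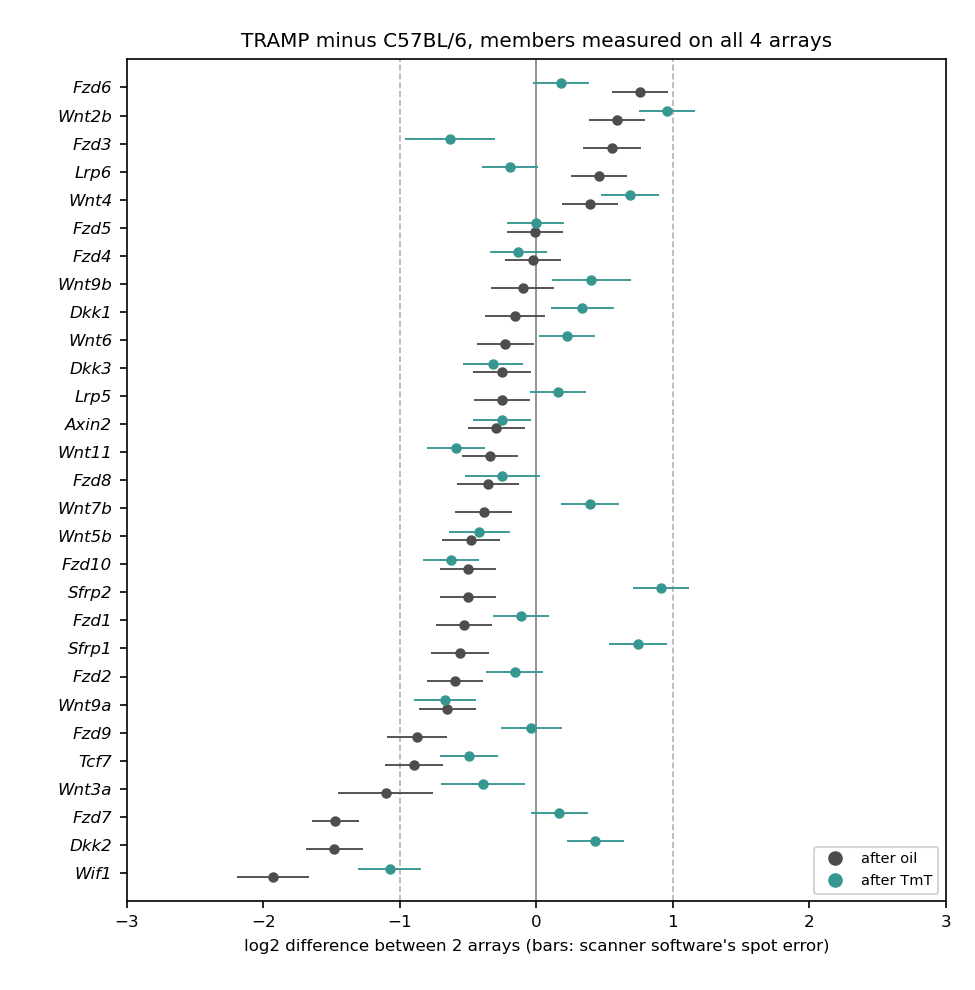
TRAMP minus C57BL/6 in log2 units for the 29 members well above background on all 4 arrays, after oil (grey) and after TmT (green); bars are the scanner software's spot error and dashed lines mark 2-fold. Wif1 lies at least 2-fold below 0 in both; Dkk2 and Fzd7 lie past -1 after oil and above 0 after TmT.

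After TmT, Wif1 was the single member at least 2-fold different between the lines. Of 32 members measured on both arrays, 1 was at least 2-fold lower in TRAMP (3.13%), where 6.11% of all genes were, and 0 were higher, where 8.43% were. The median was -0.07 against 0.01 over all genes, and 19 members (59.4%) lay below 0 against 49.5%. Both counts were under the background share. The highest difference was that of the ligand Wnt2b, at 0.96 ± 0.21. Wnt2b read 0.03 and -0.36 on the C57BL/6 arrays after oil and TmT, and 0.62 and 0.60 on the TRAMP arrays, so both TRAMP arrays lay above both C57BL/6 arrays. The 4 members above background in C57BL/6 but not in TRAMP after TmT were too dim for any bound above 1. The reason is that the weakest signal well above background on the TRAMP array after TmT was -3.53. Of all genes above background on 1 of these 2 arrays, whichever it was, 7.08% had a bound at least 2-fold lower in TRAMP.

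Some members separated the lines on all 4 arrays. Of the 29 members measured on all 4, both TRAMP arrays lay below both C57BL/6 arrays for 7, where 24.8% of all genes did so, and above them for 3, where 21.9% did. The 7 lower members, on their brightest probes, were Wif1, the receptors Fzd1, Fzd8 and Fzd10, and the ligands Wnt5b, Wnt9a and Wnt11. The 3 higher members were Wnt2b, Wnt4 and Fzd6. The share of lower members was near the background, and that of higher members was under it.

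Beside Wif1, the lower members differed by less than 2-fold on their brightest probes. Wnt9a read -1.16 and -1.23 on the C57BL/6 arrays and -1.81 and -1.90 on the TRAMP arrays, after oil and TmT. Its differences were -0.65 ± 0.21 and -0.67 ± 0.23. The dimmer Wnt9a probe, also well above background on all 4 arrays, gave -0.18 ± 0.24 and 0.08 ± 0.28, so it did not separate the lines. Fzd10 differed by -0.50 ± 0.21 after oil and -0.63 ± 0.21 after TmT. Its dimmer probe, well above background on all 4 arrays, gave -1.28 ± 0.26 after oil and -0.30 ± 0.27 after TmT. Wnt5b differed by -0.48 ± 0.21 after oil and -0.42 ± 0.22 after TmT. Its dimmer probe, well above background on all 4 arrays, gave -0.77 ± 0.21 and 0.22 ± 0.22, so it did not separate the lines. Wnt11, which acts mainly without β-catenin, differed by -0.34 ± 0.21 and -0.59 ± 0.21. Among the higher members, Fzd6, a receptor of the polarity route, read 0.78 and 0.83 on the C57BL/6 arrays and 1.54 and 1.01 on the TRAMP arrays. Wnt4, a ligand of reproductive tract development, was higher in TRAMP by 0.39 ± 0.21 after oil and 0.69 ± 0.21 after TmT.

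Both co-receptors differed by under 2-fold in all 4 comparisons. Lrp5 read 3.36 and 3.56 on the C57BL/6 arrays and 3.10 and 3.71 on the TRAMP arrays. Lrp6 read 0.74 and 0.73 on the C57BL/6 arrays and 1.20 and 0.54 on the TRAMP arrays. For each the ranges of the lines overlapped.

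An additive limma fit of genotype and treatment over the 4 arrays tested 38 members among 20029 genes. It has 1 residual degree of freedom, which with 1 array per group is the interaction of genotype and treatment. A TmT difference particular to 1 line is thereby counted as error, and the fit cannot tell it from noise. The p-values rest largely on this residual pooled over genes, and not on any spread between replicate arrays. For genotype, 0 of 38 members passed a limma adjusted p of 0.05, where 0.135% of all genes did. At an unadjusted p under 0.05 there were 2 members, both lower, where 15.1% of all genes passed and 7.22% passed as lower. One was Wif1, with a fitted difference of -1.50 ± 0.37 (SE) and a limma adjusted p of 0.174. The other was Wnt1, with a limma adjusted p of 0.183, but neither TRAMP array had it well above background, so its size is known only as a bound, 1.66-fold lower after oil and none above 1 after TmT. The median fitted genotype difference over the 38 members was -0.29, and 26 lay below 0, where 54.7% of all genes did.

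Wnt1 was measured by a probe printed 10 times on each array. Its mean was -4.13 (SD 0.44 over 10 spots) on the C57BL/6 array after oil and -4.09 (SD 0.42) after TmT. On the TRAMP arrays the mean was -5.52 (SD 0.33) after oil and -5.26 (SD 0.70) after TmT. Spots well above background numbered 9 and 7 on the C57BL/6 arrays and 0 on both TRAMP arrays. The fit put Wnt1 lower in TRAMP, but on the signal before detrending its fitted genotype difference was 0.04. Spots of 1 array share its RNA, so the SD covers the spotting only.

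In C57BL/6 mice, 0 of 36 members measured on both arrays were at least 2-fold higher or lower after TmT, where 3.13% of all genes were higher and 2.62% lower. The median was 0.01 against 0.02 over all genes, and 18 of 36 (50%) lay below 0 against 48% of all genes. The widest differences were -0.82 ± 0.21 for Fzd7 and 0.76 ± 0.26 for Wnt3a. Wnt5a, a ligand that acts mainly without β-catenin, and Axin1 were well above background after oil and not after TmT. Their bounds were 1.55-fold and 1.63-fold lower. Of all genes above background on 1 of these 2 arrays, whichever it was, 14.6% had a bound at least 2-fold lower after TmT.

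In TRAMP mice Sfrp2, Wnt3a, Dkk2, Tcf7 and Sfrp1 were at least 2-fold higher on the array after TmT than on that after oil, and Fzd3 was at least 2-fold lower. Of 29 measured on both arrays, 5 were at least 2-fold higher (17.2%), where 8.66% of all genes were, and 1 was lower (3.45%), where 4.86% were. Below 0 lay 8 members (27.6%), against 44.1% of all genes, and the median was 0.37 against 0.10. All 6 secreted antagonists measured on both arrays lay above 0, with a median of 0.86. The corresponding medians were 0.17 for 9 ligands and 0.23 for 10 receptors. Marker medians were 0.83 for fibroblasts, 0.83 for nerve and glia, 0.81 for basal epithelium, 0.90 for prostate secretion and 0.72 for smooth muscle. Luminal, leukocyte, proliferation and adipocyte markers had medians below 0. The part of cell makeup was not tested. This comparison and that between the lines after oil share the TRAMP array after oil, so its value enters both with opposite sign.

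Sfrp2, a secreted antagonist with a Frizzled-like domain that is typical of fibroblasts, read 4.63 on the C57BL/6 array after oil, 4.86 after TmT, 4.13 on the TRAMP array after oil and 5.77 after TmT. The TRAMP array after TmT was the highest and that after oil the lowest, with a difference of 1.65 ± 0.20 between them. Sfrp1, its paralog, read -1.38, -1.58, -1.94 and -0.84 in the same order, with a difference of 1.11 ± 0.21. Dkk2 was higher after TmT in TRAMP by 1.25 ± 0.21 and lower in C57BL/6 by -0.66 ± 0.21. Dkk1, a strong inhibitor of the co-receptors, differed by 0.61 ± 0.23 in TRAMP. With the normexp correction fitted without extreme spots, Sfrp2 stood at 1.19, Sfrp1 at 0.59 and Dkk2 at 0.58 for TmT in TRAMP.

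Detrending changed which members passed for TmT in TRAMP. Before it, Sfrp2 at 1.54 and Wnt3a at 1.17 passed 2-fold upward, as did Fzd7 at 2.32 and Wif1 at 1.53, which stood at 0.82 and 0.12 after it. Dkk2 at 0.93, Tcf7 at 0.92 and Sfrp1 at 0.999 did not reach 2-fold before detrending, while Fzd3 did, at -1.70.

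Tcf7, which encodes the nuclear factor TCF1, read -1.47 on the C57BL/6 array after oil, -0.73 after TmT, -2.36 on the TRAMP array after oil and -1.22 after TmT. On this brighter probe it was higher after TmT in both lines, by 0.74 ± 0.21 in C57BL/6 and 1.14 ± 0.22 in TRAMP. The dimmer Tcf7 probe gave -0.16 ± 0.21 in C57BL/6 and 0.62 ± 0.22 in TRAMP. Wnt3a was higher after TmT in both lines, by 0.76 ± 0.26 in C57BL/6 and 1.48 ± 0.39 in TRAMP. With the normexp correction fitted without extreme spots, the differences in TRAMP fell under 2-fold, to 0.62 for Tcf7 and 0.69 for Wnt3a. Axin2, a scaffold and a common readout of β-catenin signalling, read -1.29, -0.80, -1.58 and -1.05, and so was higher after TmT by 0.49 ± 0.21 in C57BL/6 and 0.53 ± 0.21 in TRAMP. Neither difference of Axin2 reached 2-fold.

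Fzd3, a polarity receptor, was the single member at least 2-fold lower after TmT in TRAMP. It read -2.21, -2.62, -1.65 and -3.25 in the same order, a difference of -1.60 ± 0.32 in TRAMP and -0.41 ± 0.23 in C57BL/6. Fzd4, an endothelial receptor, was lower after TmT in both lines, by -0.62 ± 0.21 in C57BL/6 and -0.73 ± 0.21 in TRAMP. The planned normexp correction turned the sign for TmT in TRAMP of Fzd3, to 0.93, and of Sfrp2, to -3.51, and its fitted background SD on the TmT arrays was 1169 and 4352 units.

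Of the 7 members well above background on 1 of the 2 TRAMP arrays only, 3 had bounds at least 2-fold higher after TmT, where 13.5% of all such genes did. These were 7.35-fold for Wnt2 (2.88 ± 0.39), 3.56-fold for Wnt7a (1.83 ± 0.46) and 2.78-fold for Sfrp4 (1.47 ± 0.31). Each is again the measured difference from a dim value and not a strict lower limit. These bounds and those between the lines after oil both rest on the TRAMP array after oil. Axin1, Wnt10a, Wnt5a and Wnt8b were above background after oil alone. Their bounds were 1.01-fold for Axin1 and 1.11-fold for Wnt10a, with none above 1 for the rest. Of all genes above background on 1 of these 2 arrays, whichever it was, 5.08% had a bound at least 2-fold lower.

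**Figure D3:**
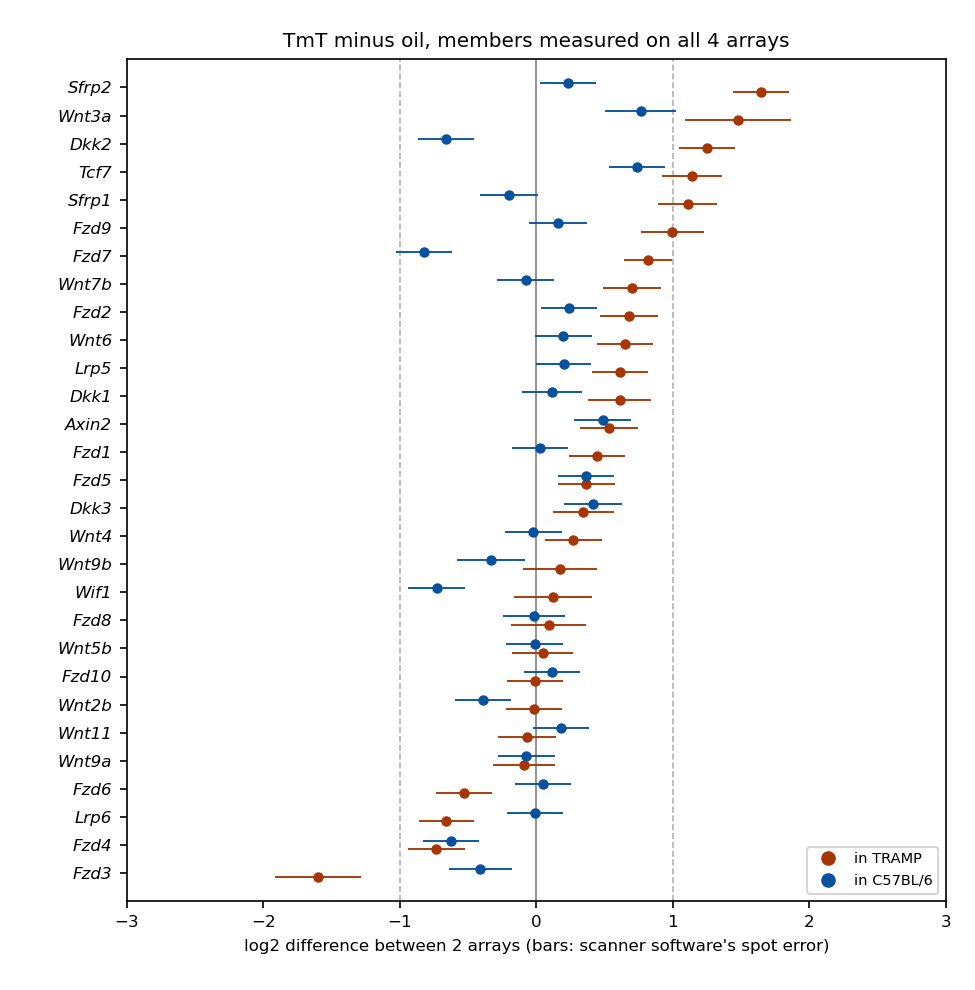
TmT minus oil in log2 units for the 29 members well above background on all 4 arrays, in TRAMP (brown) and C57BL/6 (blue); bars are the scanner software's spot error and dashed lines mark 2-fold. In TRAMP, Sfrp2, Wnt3a, Dkk2, Tcf7 and Sfrp1 lie above 1 and Fzd3 below -1; in C57BL/6 no member passes either line.

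The difference after TmT in TRAMP minus that in C57BL/6 was at least 1 log2 unit for 4 of 29 members, where 11.2% of all genes were, and at most -1 for 1 member, where 7.29% were. The 4 were Dkk2 at 1.91, Fzd7 at 1.64, Sfrp2 at 1.41 and Sfrp1 at 1.31, and the 1 was Fzd3 at -1.19. The median was 0.40 against 0.06 over all genes. With 1 array per group this difference of differences has no test.

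The limma fit of TmT over both lines called 0 of 38 members at an adjusted p of 0.05 and 0 of 20029 genes (0%), though 29 of 38 members and 14941 of 20023 genes passed with the planned normexp correction. At an unadjusted p under 0.05 it had 5 members, where 6.27% of all genes passed. Wnt2, Wnt3a, Tcf7 and Sfrp5 were higher and Axin1 lower, where 2.87% of all genes passed as higher and 3.4% as lower, and the lowest limma adjusted p among members was 0.769. Axin1 read -3.86 and -3.51 on the arrays after oil and -6.05 and -4.84 after TmT, where it was not well above background. Of the 38 fitted differences 13 lay below 0, where 46.8% of all genes did.

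Several genes had probes that differed from each other. The Fzd7 probes lie within the same transcript and gave opposite signs for TmT in C57BL/6, -0.82 for the brighter one, which starts at base 4201, and 0.86 for the dimmer one at base 2376. The dimmer Fzd7 probe was well above background on the C57BL/6 arrays alone. The Sfrp1 probes gave 1.11 for the brighter one at base 2365 and -0.07 for the other at base 3053 for TmT in TRAMP. The Fzd3 probes gave -1.60 for the brighter one at base 1713 and -0.38 for the other at base 2457 in the same comparison. The first 30 of 60 bases of each probe, as the array annotation gives them, are shown so that these sites can be told apart.
Fzd7 base 4201: aagggaaggtgaacttcaaagtgattctgg
Fzd7 base 2376: agccccgactttacagtcttcatgatcaag
Sfrp1 base 2365: cggaatcagtatagcgtggaaggagacagt
Sfrp1 base 3053: gtgcattagtaattagaaatagtctaacct
Fzd3 base 1713: caggttactcagatgagtcgtccagacctg
Fzd3 base 2457: tggggtgtgaacacatccaaaccctaagga
On build mm9 the Fzd7 probes lie at chr1:59543192-59543251 and chr1:59541367-59541426, and the Sfrp1 probes at chr8:24558112-24558171 and chr8:24558800-24558859. The Fzd3 probes lie at chr14:65831004-65853753, a span that includes an intron, and at chr14:65821343-65821403. Exon and UTR positions of the probes were not looked up.

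Tcf7 probes also differed, with 0.74 and -0.16 for TmT in C57BL/6, though both were above 0 for TmT in TRAMP, at 1.14 and 0.62. For Wnt6, a ligand of epithelia, the brighter probe gave 0.65 for TmT in TRAMP and the dimmer one 1.50. When all probes of a gene were averaged, Fzd3 stood at -0.99 for TmT in TRAMP, which left 0 members at least 2-fold lower there. The same averaging put Dkk1 at -1.10 for TmT in C57BL/6, against 0.12 for its brighter probe, since its dimmer probe was well above background on the C57BL/6 array after oil alone.

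On their brightest probes, the remaining members differed by less than 2-fold in every comparison with both arrays well above background. Dimmer probes of Fzd10 and Wnt6 passed 2-fold, as given above. For the ligands Wnt4, Wnt5b, Wnt6, Wnt7b, Wnt9a, Wnt9b and Wnt11 the range over the 4 arrays ran from 0.40 for Wnt9b to 0.74 for Wnt9a. For the receptors Fzd1, Fzd2, Fzd4, Fzd5, Fzd6, Fzd8, Fzd9 and Fzd10 it ran from 0.35 for Fzd8 to 1.03 for Fzd9. For the antagonists Dkk1 and Dkk3 it was 0.61 and 0.66. Fzd9, whose TRAMP array after oil read -2.61 against -1.73, -1.58 and -1.61 on the others, differed by -0.87 ± 0.22 between the lines after oil, and by 0.996 ± 0.23 with TmT in TRAMP, just under 2-fold. Wnt8b, measured on every array but that of TRAMP after TmT, differed by -0.49 ± 0.33 between the lines after oil.

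Over all 29 members measured on every array, the TRAMP array after oil was the lowest of the 4 in 19 (65.5%), where it was so for 32.7% of all genes. It was the highest in 4 (13.8%), against 22% of all genes. The TRAMP array after TmT was the highest in 8 (27.6%), against 30.1%, and the lowest in 6 (20.7%), against 25%. The C57BL/6 array after oil was the lowest in 1, against 21.9% of all genes, and the highest in 7, against 23.3%. The C57BL/6 array after TmT was the lowest in 3, against 20.3%, and the highest in 10, against 24.7%. These counts are on the processed signal and were not repeated on the signal before detrending. The SD of the detrending factor over spots was 0.223 on the TRAMP array after oil. On the C57BL/6 arrays it was 0.104 after oil and 0.0657 after TmT.

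Other genes of the pathway were taken from a list of 67, of which 64 were named on the array. After oil, 5 of 58 measured on both arrays were at least 2-fold lower in TRAMP and 2 higher, around a median of -0.15, where 7.85% and 7.73% of all genes were. After TmT in TRAMP, 8 of 57 passed 2-fold upward and 2 downward (median 0.37), against 8.66% and 4.86% of all genes. In C57BL/6 the counts were 2 upward and 1 downward of 61 (median 0.06), against 3.13% and 2.62%. Between the lines after TmT, 2 of 59 were higher and 1 lower (median 0.04), against 8.43% and 6.11%. The limma fit called 0 of 63 for either factor at an adjusted p of 0.05, with 7 for genotype and 6 for TmT at an unadjusted p under 0.05, where 15.1% and 6.27% of all genes passed.

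Lgr5, an R-spondin receptor and stem cell marker, read -1.36 on the C57BL/6 array after oil, -1.76 after TmT, -3.20 on the TRAMP array after oil and -0.79 after TmT. It differed by -1.84 ± 0.24 between the lines after oil and by 2.41 ± 0.24 with TmT in TRAMP. Sostdc1, a secreted antagonist outside the member families, read 1.37, 1.94, -0.79 and 1.06 in the same order, with differences of -2.16 ± 0.21 and 1.85 ± 0.21. Nkd1, an intracellular inhibitor that binds Dishevelled, read -0.38, -0.33, -1.92 and -0.15. In these 3 genes, as in Dkk2 and Fzd7, the TRAMP array after oil was the lowest.

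Ptk7, a Wnt co-receptor of the polarity route, read -0.90, -0.37, -4.81 and -0.46. On its 1 probe it was 15.0-fold lower in TRAMP after oil (-3.91 ± 0.61), where it was not well above background. Sp5, a target gene of β-catenin, went the other way, at -2.11, -0.52, 0.24 and -0.15, which gave 2.35 ± 0.21 between the lines after oil. Ascl2, another target gene, read 1.35, 0.70, 0.25 and -0.78, and was at least 2-fold lower on each TRAMP array than on its C57BL/6 counterpart. Pygo2, a nuclear cofactor of β-catenin, was lower after TmT in both lines, by -1.26 ± 0.22 in C57BL/6 and -1.70 ± 0.26 in TRAMP. Ctnnb1, which encodes β-catenin itself, read 6.39, 6.44, 6.30 and 5.91.

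Markers of other cell types differed between the arrays too. In bulk tissue, fewer cells of a type and less RNA per cell cannot be told apart. The summed linear signal of 10 fibroblast markers, in multiples of the array's 75th percentile, was 154 on the C57BL/6 array after oil, 129 after TmT, 75.4 on the TRAMP array after oil and 138 after TmT. Their median difference was -0.64 between the lines after oil, with 8 of 10 below 0, and 0.83 for TmT in TRAMP, with 9 of 10 above 0. The 4 basal epithelial markers summed to 26.7, 21.5, 10.7 and 20.2 and the 7 endothelial markers to 8.21, 7.73, 4.20 and 7.19 in the same order. Between the lines after oil, 3 of the 4 basal markers lay below 0. The other, Trp63, was higher in TRAMP, by 0.60 ± 0.20 after oil and 1.72 ± 0.20 after TmT. By summed signal the TRAMP array after oil was the lowest in all 3 lists, as it was for 19 of the 29 members. Every marker in them was well above background on every array. The TRAMP array after oil was also the lowest for luminal epithelial, smooth muscle and prostate secretion markers. For nerve and glia and seminal vesicle markers it was the lowest by little. It was not the lowest for leukocyte, adipocyte or proliferation markers. In the same order, leukocyte markers summed to 14.4, 10.7, 9.81 and 9.77. Nerve and glia markers summed to 8.66, 9.07, 8.65 and 13.6, and luminal epithelial markers to 120, 162, 93.7 and 111. The part of cell makeup in the members' differences was not tested.

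Smooth muscle markers, 8 in number, summed to 262 on the TRAMP array after oil and to between 287 and 327 on the others. The 7 adipocyte markers went the other way, at 248 on the TRAMP array after oil against 43.8, 23.1 and 28.6 on the C57BL/6 arrays after oil and TmT and the TRAMP array after TmT. All 6 adipocyte markers measured on both arrays after oil were at least 2-fold higher in TRAMP, with a median of 2.86. Between 1 and 3 of the 7 were not well above background on each array, and Lep was not well above background on any. Their part in the members' values was not tested either. The 6 genes of prostate secretion, all well above background on every array, summed to 1057 on the C57BL/6 array after oil, 1285 after TmT, 398 on the TRAMP array after oil and 743 after TmT. Their median difference was -1.85 between the lines after oil, -1.44 between them after TmT and 0.90 for TmT in TRAMP, and the TRAMP array after oil was again the lowest. Their part in the members' values was not tested. The 5 seminal vesicle markers summed to between 1782 and 2141.

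**Figure D4:**
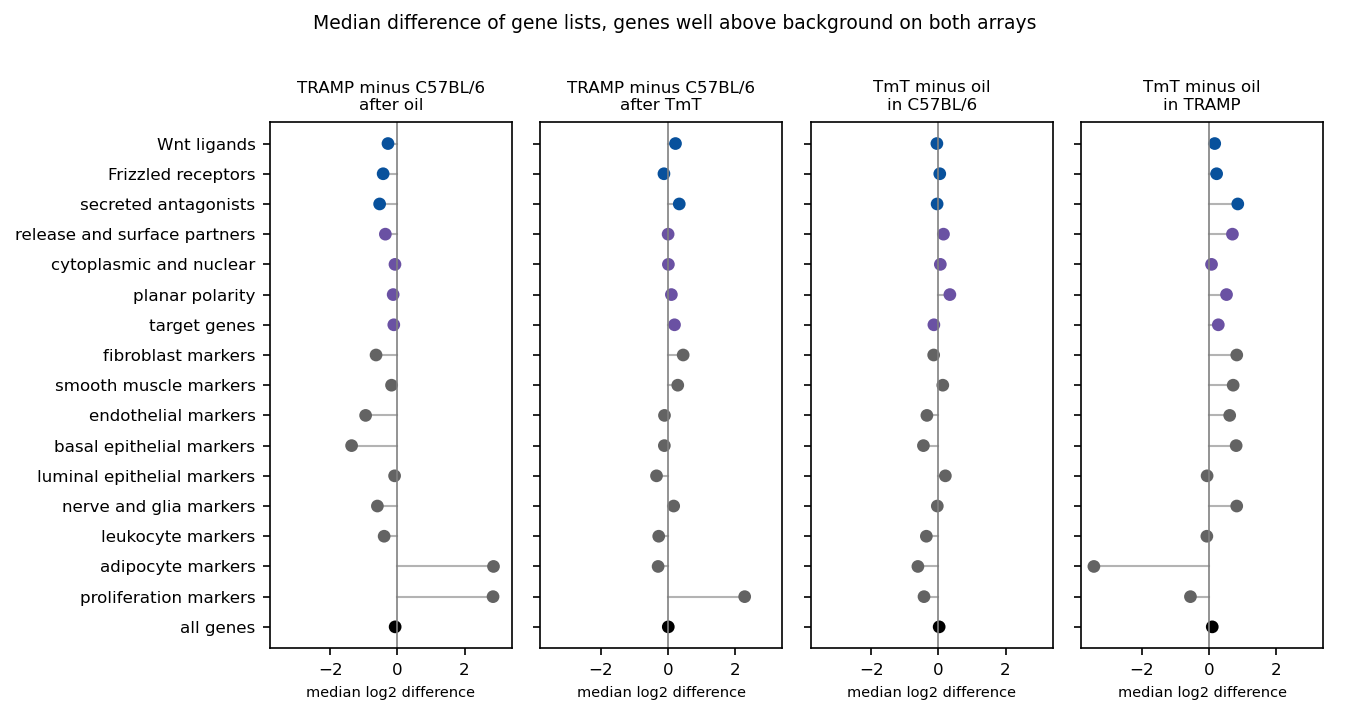
Median log2 difference of each gene list in the 4 comparisons, over genes well above background on both arrays; member roles are blue, other pathway genes purple, cell type markers grey and all genes black, with no error bars since each comparison is of 2 arrays. Secreted antagonists lie at -0.53 between the lines after oil and at 0.86 for TmT in TRAMP. Fibroblast markers lie at -0.64 and 0.83, nerve and glia markers at -0.60 and 0.83, and basal epithelial markers at -1.37 and 0.81. Adipocyte markers lie at 2.86 and -3.43.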

How the data were processed

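Prostate RNA of 4 groups was measured on 1 array each. The deposited files are the scanner software's output, Agilent Feature Extraction 10.2.1.3 per the file headers, with probe positions on mouse build mm9. The values used are processed intensities, which per the file headers already carry the software's background subtraction and, on all but the TRAMP array after TmT, its multiplicative detrending, while arrays were not normalized to each other. The deposited series table held the same intensities for all 45018 features. Flags for background and outliers came from the same software.

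Spots marked as outliers (131 to 348 per array) were left out, spots of a probe were averaged as log2 values, and each array was scaled to the 75th percentile of its non-control spots. Genes were represented by their brightest probe. Differences between arrays carry the software's spot error and no test. Only 4 arrays were available, and this number limits the precision. The additive fit used limma 3.58.1 in R 4.3.3 on the 20029 genes whose probe was well above background in 2 or more arrays. Benjamini-Hochberg adjustment was over all of them. The fit was run on simulated data with additive genotype differences and noise drawn from its own model. That run does not cover genes where TmT acts differently in the 2 lines.

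The members and gene lists were chosen with earlier results of these data known. Members are named with values on all arrays where they differed at least 2-fold, had a bound of at least 2-fold, had the brightest probe of their role (used to pick genes to name, not to compare levels) or passed the fit. Pathway genes outside the members were named by size of difference. Wnt1, Wnt4, Wnt5b, Wnt6, Lrp6, Dkk1, Axin2, Fzd4, Fzd9, Fzd10, Wnt8b, Wnt9a, Wnt11, Ptk7 and Ctnnb1 were added after their values were seen. For 54 of 58 member probes the accession was found in the RefSeq table, with the same symbol. Alternatives varied normalization, centring, background correction, detrending, the source of values, outlier spots, probe choice, the background filter, the fold threshold and the fit.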

Additional observations from a re-analysis of the deposited data

How the results depend on the processing

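No paired analysis was possible because the labels give no replicate numbers and each group has 1 array; for the same reason no array could be left out of a difference. Of the values for counts, medians and fits under the alternatives, 139 stayed (a count within 1.5 times, a median within the spot error) and 27 moved. Median centring, the deposited table, keeping outlier-marked spots, counting each probe on its own and asking for signal on all 4 arrays moved none of them. For members at least 2-fold lower in TRAMP after oil, 4 in the report, the count was 10 without the background filter and 1 each at 3-fold, with normexp as planned and with normexp fitted without spots of extreme local background, an alternative chosen after seeing the data. The median of that comparison became 0.00926 with planned normexp and -0.015 with the added one. After TmT, 1 member was higher in TRAMP with quantile normalization (Sfrp2, at 1.00) or no filter; members lower, 1 in the report, were 3 with no filter and 0 at 3-fold, before detrending and with the added normexp. For TmT in C57BL/6, planned normexp gave 12 higher, 2 lower and a median of 0.79; members lower were 1 with probes averaged and 2 without the filter. For TmT in TRAMP, members higher, 5 in the report, were 10 with planned normexp, 2 with the added one, 11 without the filter and 1 at 3-fold; members lower, 1 in the report, were 4 with planned normexp, 0 with the added one or with probes averaged and 2 without the filter. The planned normexp median there was 0.79, and its limma fit put 29 of 38 members and 14941 of 20023 genes past an adjusted p of 0.05 for TmT, where every other setting put 0 members. The planned correction could not be fitted soundly on both TmT arrays, where its background SD came to 1169 and 4352 units against 0.666 and 0.620 on the oil arrays; leaving out 16 and 9 spots brought it to 1.96 and 1.72.

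Of 1120 values of single members under the alternatives, 134 had the opposite sign, 124 of them where the reported difference was under 1 log2 unit (86 with either normexp). The other 10 were these. With planned normexp, Wnt3a after oil was 0.040, Wif1 after TmT 0.028, Fzd3 0.93 and Sfrp2 -3.51 for TmT in TRAMP, the fitted genotype difference of Wnt1 0.042 and the fitted TmT difference of Axin1 1.57. With the added normexp, Wnt3a after oil was 0.040, Wnt1 0.16 and Axin1 0.23, and before detrending Wnt1 was 0.039. Apart from the normexp background fit, whose SD is given above, the cause was not tested. The count of all genes past the genotype threshold, 27 in the report, ranged from 0, with quantile normalization among others, to 1398 with the added normexp, while 0 members passed in any setting; for TmT the added normexp gave 358 genes. Signal over background leaves the 6 members that were not well above it on any array without a difference.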

Other observations

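Some Wnt genes lie next to each other in the genome, and their probes were compared by position on build mm9. Wnt1 and Wnt10b lie on chromosome 15 with 21113 bases between their probes; Wnt1 was well above background on both C57BL/6 arrays and Wnt10b on none. Wnt10a and Wnt6 lie on chromosome 1 with 19207 bases between probes; Wnt6 was well above background on all 4 arrays and Wnt10a on 3. Wnt3 and Wnt9b lie on chromosome 11 with 90097 bases between probes, and Wnt9b was measured on all 4 arrays while Wnt3 was measured on none. Wnt3a and Wnt9a, also on chromosome 11 with 82793 bases between probes, were both measured on all 4 arrays. Wnt3a differed between the lines by -1.10 ± 0.35 after oil and -0.39 ± 0.31 after TmT, and Wnt9a by -0.65 ± 0.21 and -0.67 ± 0.23. With TmT in TRAMP, Wnt3a differed by 1.48 ± 0.39 and Wnt9a by -0.09 ± 0.23.

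R-spondins, secreted proteins that enhance Wnt signals through Lgr receptors, were outside the member list. Rspo1 read -2.38 on the C57BL/6 array after oil, -1.99 after TmT, -3.34 on the TRAMP array after oil and -1.10 after TmT, and on the third of these it was not well above background. Against that dim value it was 4.73-fold higher after TmT in TRAMP (2.24 ± 0.34). Rspo2 read -2.52 and -2.98 on the C57BL/6 arrays and did not reach the background threshold on the TRAMP arrays. It was 4.99-fold lower in TRAMP after oil (-2.32 ± 0.61), with a limma adjusted p of 0.0978 for genotype. Rspo3 read -0.76, -1.11, -0.61 and 0.33 and differed between the lines by 1.44 ± 0.21 after TmT. Frzb, a secreted relative of the Sfrp genes, read -3.29 and -3.76 on the C57BL/6 arrays and was not well above background in TRAMP, with a limma adjusted p of 0.0912. These genes were named after their values were seen.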
